A study of Mus musculus with 4 samples.

Results

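Expression of the genes that write, maintain and remove cytosine methylation was examined in male germ cells of wild-type mice. The set consists of 10 genes taken by symbol from the deposited gene table of 36088 genes. It comprises the maintenance methyltransferase Dnmt1, the de novo methyltransferases Dnmt3a, Dnmt3b and Dnmt3c, their catalytically inactive partner Dnmt3l, the hemimethylated DNA readers Uhrf1 and Uhrf2, and the dioxygenases Tet1, Tet2 and Tet3. Cells came from fetal testes kept in culture with CBR-5884 or with its solvent DMSO and were then sorted. CBR-5884 is given by the series as an inhibitor of serine metabolism and is known to target Phgdh, which opens serine synthesis from glucose. Each condition has 2 libraries, numbered 2 and 4 in the table, and the sample titles give day 14 for all 4 of them. What that day is counted from, the dose, the sorting marker and the number of testes per culture are not stated in the labels. The design text calls the libraries biological replicates. The p-values rest only on spread between libraries, that of each gene drawn towards that of genes at a like level.

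DNA methylation is copied after replication by DNMT1, which UHRF1 recruits to hemimethylated CpG sites. New methylation is laid down by the DNMT3 enzymes, and TET enzymes oxidise methylcytosine as a step towards its removal. In the mouse male germ line, methylation is erased in primordial germ cells and set again in fetal prospermatogonia, where DNMT3A and DNMT3L act genome-wide and DNMT3C, a rodent enzyme, acts on young retrotransposons. Methyltransferases take their methyl group from S-adenosylmethionine, to whose supply serine contributes through folate-bound carbon.

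The libraries rested on about 22400000 to 28200000 estimated reads each. Germ cell markers dominated, with 8 of 8 present in every library and a summed level of 2558 and 2474 TPM with CBR-5884, against 2478 and 2461 TPM with DMSO. TPM is a level corrected for transcript length and library size, which allows genes to be compared with each other. The 8 Sertoli cell markers were detected too and summed to 198 and 154 TPM with CBR-5884, against 227 and 116 TPM with DMSO. Summed levels over all 4 libraries were 8.20 to 13.6 TPM for 6 Leydig markers, 44.8 to 55.2 TPM for 8 peritubular and stromal markers, and 9.44 to 10.4 TPM for 5 endothelial markers. The 7 macrophage and blood markers summed to 18.7 and 59.3 TPM with CBR-5884, against 34.3 and 31.7 TPM with DMSO, and the globin genes Hbb-bs and Hba-a1 were listed at 0 throughout. In such bulk samples, fewer cells of a type and less RNA per cell cannot be told apart.

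The methylation machinery covered more than 3 orders of magnitude in these cells. Maintenance genes stood at the top, de novo enzymes in the middle, and Dnmt3l, Tet1 and Dnmt3c at the bottom. Dnmt1 averaged 358 TPM over the 4 libraries and ranked 405th of the 36088 genes. Uhrf1 followed with 253 TPM, Dnmt3a with 120 TPM, Dnmt3b with 63.5 TPM, Uhrf2 with 59.5 TPM, Tet3 with 29.4 TPM and Tet2 with 6.48 TPM. Dnmt3l had 1.47 TPM, Tet1 0.979 TPM and Dnmt3c 0.153 TPM. Neighbours in this order had separate ranges over the 4 libraries, except for Dnmt3b with Uhrf2 and Dnmt3l with Tet1, whose ranges overlapped. A mean of at least 1 TPM was required for testing, and 8 of the 10 genes met it. Tet1 and Dnmt3c did not.

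**Figure D1:**
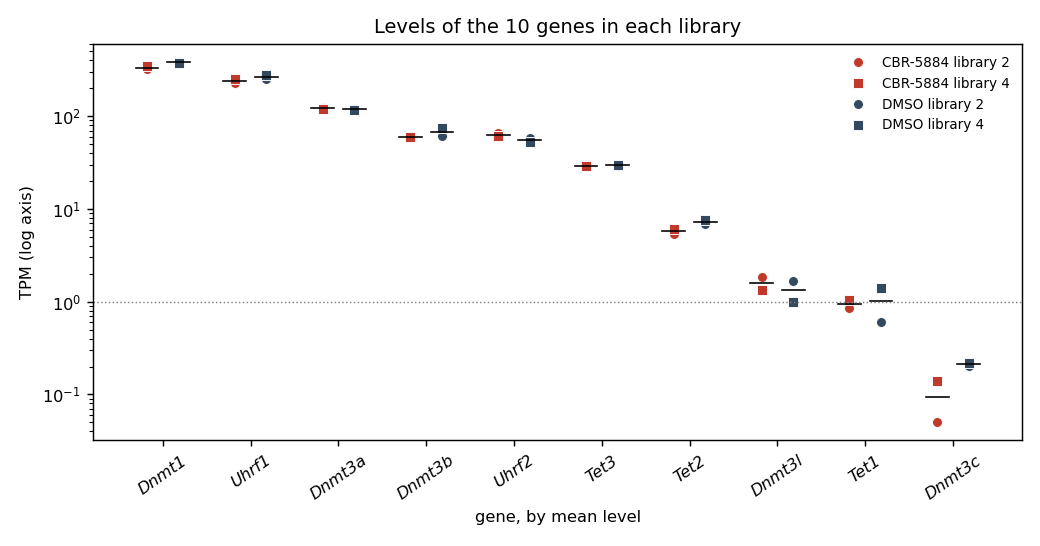
TPM (log axis) of the 10 genes, ordered by mean level, with 1 point per library, circles for library 2 and squares for library 4, and a bar at the mean of each condition (n = 2). The dotted line marks the 1 TPM needed for testing. Both conditions sit close together for the abundant genes, from Dnmt1 at 358 TPM down to Tet3 at 29.4 TPM, and points scatter most for Dnmt3l, Tet1 and Dnmt3c.

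Between the conditions, 0 of the 8 tested genes passed an adjusted p under 0.05 (limma on log2(TPM + 1), Benjamini-Hochberg over 14920 genes). Across all tested genes 0% passed. At an unadjusted p under 0.05 there was 1 of the 8, Dnmt1, which lay lower with CBR-5884, while 3.66% of all tested genes (546) met that limit and 2.15% met it in the lower direction. The CBR-5884 and DMSO libraries had separate ranges for 5 of the 8, against 31.3% of all tested genes. Dnmt1, Dnmt3b and Tet2 were the 3 with the CBR-5884 range below (17.7% of all tested genes), and Dnmt3a and Uhrf2 the 2 with it above (13.6%). The median log2 fold change of the 8 was -0.08, and that of all tested genes was -0.01. An exact permutation test of 2 against 2 libraries (two-sided) cannot give a p under 0.333, and each gene is therefore described with its interval from limma.

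**Figure D2:**
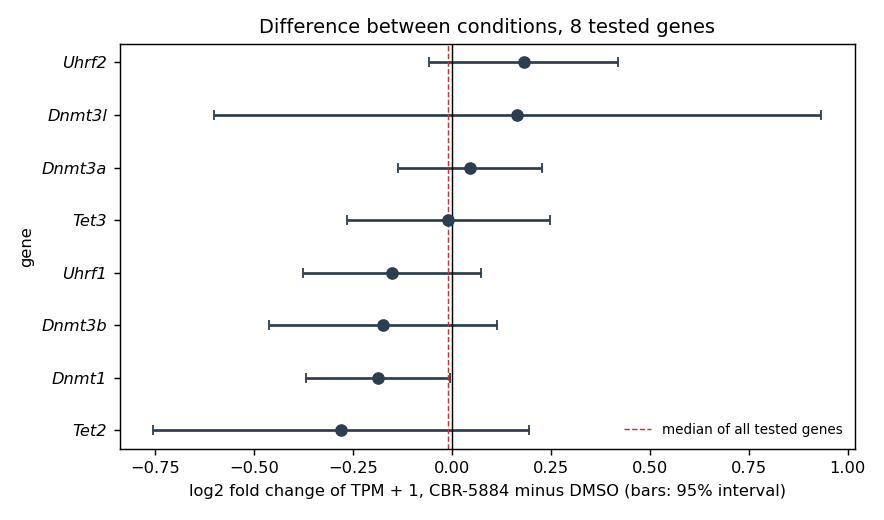
Log2 fold change of TPM + 1, CBR-5884 minus DMSO, for the 8 tested genes, with 95% intervals from limma (2 libraries per condition) and a dashed line at the median of all 14920 tested genes. Of the 8 intervals, that of Dnmt1 ends just below 0 at -0.01, and the other 7 include 0.

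Dnmt1 (ENSMUSG00000004099, chromosome 9, 20907209 to 20959888, minus strand) encodes the methyltransferase that copies methylation onto the daughter strand. It had 323 and 347 TPM in the CBR-5884 libraries, against 384 and 378 TPM in the DMSO libraries. Both CBR-5884 libraries lay below both DMSO libraries. The means were 335 ± 16.9 TPM with CBR-5884 and 381 ± 4.08 TPM with DMSO (SD, n = 2 each). The log2 fold change was -0.19 (SE 0.07) with a 95% interval of -0.37 to -0.01, a level with CBR-5884 of 0.878 times that with DMSO. It did not pass the threshold over all genes (limma adjusted p = 0.998), and its unadjusted limma p of 0.0454 ranked 499th among the 14920 genes. Without CBR-5884 library 2 the log2 fold change was -0.14 and the limma unadjusted p was 0.195. Leaving out DMSO library 2 gave a limma unadjusted p of 0.160, leaving out DMSO library 4 gave 0.123, and leaving out CBR-5884 library 4 gave 0.0467. With 1 library left in a condition, its spread is taken to be that of the other condition. The limma unadjusted p was 0.0835 with equal library totals and 0.0540 with median ratio scaling, while the log2 fold changes were -0.16 and -0.18. Over all alternatives the log2 fold change stayed between -0.24 and -0.14, and the lowest limma adjusted p was 0.794.

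Uhrf1 (ENSMUSG00000001228, chromosome 17, 56303321 to 56323486, plus strand) encodes the protein that binds hemimethylated DNA and brings DNMT1 to it. It had 227 and 252 TPM with CBR-5884, against 252 and 280 TPM with DMSO. The higher CBR-5884 library and the lower DMSO library were level to 3 digits, so the ranges met. The log2 fold change was -0.15 with a 95% interval of -0.38 to 0.07 (limma adjusted p = 0.998). Within each library number the ratio of CBR-5884 to DMSO was 0.898 for number 2 and 0.9005 for number 4. Whether the number pairs the libraries is not known, so these ratios describe the values only. A share of 24.2% of the 31-base words of Uhrf1 transcripts occurs in other genes, mostly in Gm5648, which was listed at 0 with CBR-5884 and at 0.110 and 0.0584 TPM with DMSO.

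Uhrf2 (ENSMUSG00000024817, chromosome 19, 30030513 to 30093722, plus strand) encodes a relative of UHRF1 that does not replace it in maintenance. It had 66.0 and 60.5 TPM with CBR-5884, against 58.2 and 53.2 TPM with DMSO, so that both CBR-5884 libraries were above both DMSO libraries. On the log2 scale the fold change was 0.18 with a 95% interval of -0.06 to 0.42 (limma adjusted p = 0.998). Uhrf2 made up 22.6 and 19.4% of the summed UHRF level with CBR-5884, against 18.8 and 15.96% with DMSO. The higher share with CBR-5884 combined a lower Uhrf1 mean and a higher Uhrf2 mean, neither of which passed the threshold. The lower CBR-5884 share and the higher DMSO share were close, and no test of this share was made.

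Dnmt1 and Uhrf1 are known for high expression in cycling cells, in which E2F factors drive genes of DNA replication. The letters TTTCCCGC, TTTCGCGC, TTTGCCGC and TTTGGCGC, which spell out the E2F consensus, were searched on both strands in the 250 bases before each RefSeq start. The 9 genes of the set with an entry had 16 such windows, of which 2 held a match, 1 of Dnmt1 and 1 of Uhrf1. A match was held by 1.86% of all promoter windows. Every searched word contains CG, and the matching windows of Dnmt1 and Uhrf1 held 26 and 30 CG. The median over all windows was 6, and the share among windows of like CG content was not computed. Both stretches of 30 bases are shown because they hold the only matches in the windows of the set. Capitals mark the match. The Dnmt1 stretch lies at chr9:20952824-20952853 (GRCm38, minus strand), over 2 annotated GENCODE exons but no coding part, and 219 bases before a RefSeq start. The Uhrf1 stretch lies at chr17:56304117-56304146 (GRCm38, plus strand), in an intron of 2 annotated transcripts and 185 bases before a RefSeq start. Both genes also have a RefSeq start upstream of the stretch shown, so each stretch lies inside the gene when counted from there.
Dnmt1: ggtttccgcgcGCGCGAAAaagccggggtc
Uhrf1: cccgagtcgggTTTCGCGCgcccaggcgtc
The distance is counted from the first base of the match, and Dnmt1 carries TTTCGCGC on the opposite strand. A match describes the letters and does not show that a factor binds there.

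A list of 14 S phase and proliferation genes was set beside these values. Its summed level was 2587 and 2600 TPM with CBR-5884, against 2730 and 2799 TPM with DMSO, and the CBR-5884 libraries lay below the DMSO libraries. Of the 14, 3 had a positive and 11 a negative log2 fold change, with a median of -0.07, ranges apart for 7, all lower with CBR-5884 (17.7% of all tested genes), and 0 past the adjusted threshold (limma). CBR-5884 library 4 had the lowest TPM total, 966761, and the count of separate ranges was not repeated with equal library totals. Mcm7, a subunit of the replicative helicase, was the most abundant and had 392.2 and 388 TPM with CBR-5884, against 439 and 439 TPM with DMSO. Its own 31-base words occur elsewhere in 30.9% of cases, so its level is uncertain. As a share of this summed level, Dnmt1 was 12.5 and 13.3% with CBR-5884, against 14.1 and 13.5% with DMSO, which kept the ranges apart. Uhrf1 was 8.76 and 9.70% with CBR-5884, against 9.24 and 10.01% with DMSO, and these ranges overlapped. The part of proliferation in the Dnmt1 difference was not tested. Both sets of shares were chosen after values were seen.

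Among de novo enzymes, Dnmt3a (ENSMUSG00000020661, chromosome 12, 3806007 to 3914443, plus strand) was the most abundant. DNMT3A is the main de novo methyltransferase of prospermatogonia. It had 123 and 120 TPM with CBR-5884, against 120 and 116 TPM with DMSO. The ranges were separate by a narrow margin, with the lower CBR-5884 library at 120.4 TPM and the higher DMSO library at 119.8 TPM. The log2 fold change was 0.05 with a 95% interval of -0.14 to 0.23 (limma adjusted p = 0.998), so changes of more than 1.17-fold upwards lay outside the interval.

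Dnmt3b (ENSMUSG00000027478, chromosome 2, 153649450 to 153687730, plus strand) encodes the enzyme known for methylating pericentromeric repeats. It had 59.0 and 59.9 TPM with CBR-5884, against 60.6 and 74.6 TPM with DMSO. Of the 4 libraries, 3 lay within 59.0 to 60.6 TPM, and DMSO library 4 stood above them. Its log2 fold change was -0.17 with a 95% interval of -0.46 to 0.11 (limma adjusted p = 0.998). Leaving out DMSO library 4 brought it to -0.03, and leaving out DMSO library 2 brought it to -0.32, so DMSO library 4 set most of its size. The ranges of Dnmt3b overlapped when libraries were scaled to equal totals. DMSO library 4 also had the lowest sum of Sertoli markers, at 116 TPM, and the part of this in the Dnmt3b difference was not tested. Dnmt3a exceeded Dnmt3b by 2.09 and 2.01 times with CBR-5884, against 1.98 and 1.56 times with DMSO.

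Dnmt3c (ENSMUSG00000082079, chromosome 2, 153696652 to 153729907, plus strand) lies next to Dnmt3b on the same strand and arose from a copy of it. It was listed at 0.0501 and 0.139 TPM with CBR-5884, against 0.204 and 0.219 TPM with DMSO. A rough estimate of the reads behind these levels is 2.6 and 6.6 with CBR-5884, against 9.1 and 9.1 with DMSO. Exact reads could not be recovered. A fold change from so few reads is not given. Of its 31-base words 31.9% also occur in Dnmt3b, which was far more abundant, so even these reads cannot be assigned with certainty. The share of Dnmt3b words found in Dnmt3c was 13.5%.

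The coding sequences of Dnmt3b (2580 bases) and Dnmt3c (2220 bases) were aligned to show where reads can tell them apart. They were identical at 89.4% of 2196 aligned positions. The longest run without a difference was 287 bases, and the first 60 bases of it, positions 2167 to 2226 of the Dnmt3b and 1807 to 1866 of the Dnmt3c coding sequence, have the same letters in both genes. A read from there fits either gene. The 60 aligned bases with the most differences, 21, lie at positions 172 to 231 of Dnmt3b and 157 to 216 of Dnmt3c, where capitals mark the differing bases. Positions are counted from the A of the start codon, and sequences are those of GENCODE M21.
Both: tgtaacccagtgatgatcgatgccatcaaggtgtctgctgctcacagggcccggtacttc
Dnmt3b: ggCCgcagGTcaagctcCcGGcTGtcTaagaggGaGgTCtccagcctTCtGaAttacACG
Dnmt3c: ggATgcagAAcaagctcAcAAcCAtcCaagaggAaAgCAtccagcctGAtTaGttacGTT

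Dnmt3l (ENSMUSG00000000730, chromosome 10, 78041947 to 78063622, plus strand) encodes the cofactor that stimulates DNMT3A and is known for a peak in prospermatogonia. It had 1.87 and 1.34 TPM with CBR-5884, against 1.69 and 0.989 TPM with DMSO. The conditions overlapped, and in both the library numbered 2 was the higher. Its log2 fold change was 0.17 with a 95% interval of -0.60 to 0.93 (limma adjusted p = 0.998), and it turned to -0.05 without DMSO library 4. Dnmt3a exceeded Dnmt3l by 66.1 and 89.7 times with CBR-5884, against 71.1 and 118 times with DMSO. The Dnmt3a share of the summed DNMT3 level was 66.9 and 66.2% with CBR-5884, against 65.7 and 60.5% with DMSO, and the DMSO library with most Dnmt3b had the lowest share. Dnmt1 exceeded Dnmt3a by 2.62 and 2.88 times with CBR-5884, against 3.20 and 3.25 times with DMSO. The separate ranges of this ratio follow from those of Dnmt1 and Dnmt3a, which lay apart in opposite directions. The summed DNMT3 level was 184 and 182 TPM with CBR-5884, against 182 and 192 TPM with DMSO, and these ranges overlapped.

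Of the dioxygenases, Tet3 (ENSMUSG00000034832, chromosome 6, 83362373 to 83459084, minus strand) was the most abundant. It is the TET enzyme known for oxidising the paternal genome in the zygote. It had 29.2 and 29.4 TPM with CBR-5884, against 28.95 and 30.05 TPM with DMSO, and showed the smallest spread of the 10 genes, 1.58% of its mean over the 4 libraries. The log2 fold change was -0.01 with a 95% interval of -0.27 to 0.25 (limma adjusted p = 0.998), and its sign depended on how libraries were scaled.

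Tet2 (ENSMUSG00000040943, chromosome 3, 133463679 to 133545139, minus strand), known best as a regulator of blood cell differentiation, had 5.41 and 6.12 TPM with CBR-5884, against 6.85 and 7.57 TPM with DMSO. Both CBR-5884 libraries lay below both DMSO libraries, and the ratio was 0.790 for library number 2 and 0.808 for number 4, numbers not known to pair the libraries. Its log2 fold change was -0.28 with a 95% interval of -0.76 to 0.19 (limma adjusted p = 0.998). It was the largest difference of the 8 tested genes, with the second widest interval. Its range over the alternatives was -0.36 to -0.20. The 7 macrophage and blood markers summed to 18.7 and 59.3 TPM with CBR-5884, against 34.3 and 31.7 TPM with DMSO, and their part in the Tet2 difference was not tested.

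Tet1 (ENSMUSG00000047146, chromosome 10, 62804570 to 62908996, minus strand) encodes the enzyme known for demethylating germline gene promoters in primordial germ cells. It had 0.857 and 1.05 TPM with CBR-5884, against 0.599 and 1.41 TPM with DMSO. The DMSO libraries enclosed both CBR-5884 libraries. In a fit without a minimum level its log2 fold change was -0.01 with a 95% interval of -0.77 to 0.75. That scale, log2(TPM + 1), understates changes of so low a gene, so even larger changes of its TPM could lie within the interval.

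Tet3 made up 82.4 and 80.4% of the summed TET level with CBR-5884, against 79.5 and 77.0% with DMSO. Tet2 made up 15.2 and 16.7% with CBR-5884, against 18.8 and 19.4% with DMSO. The conditions did not overlap, as they did not for the Tet2 level itself, and no test of this share was made. The summed TET level was 35.5 and 36.5 TPM with CBR-5884, against 36.4 and 39.0 TPM with DMSO, and overlapped. Methyltransferase mRNA exceeded TET mRNA by far. The summed level of the catalytic genes Dnmt1, Dnmt3a, Dnmt3b and Dnmt3c was 14.2 and 14.4 times the TET sum with CBR-5884, against 15.5 and 14.6 times with DMSO.

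**Figure D3:**
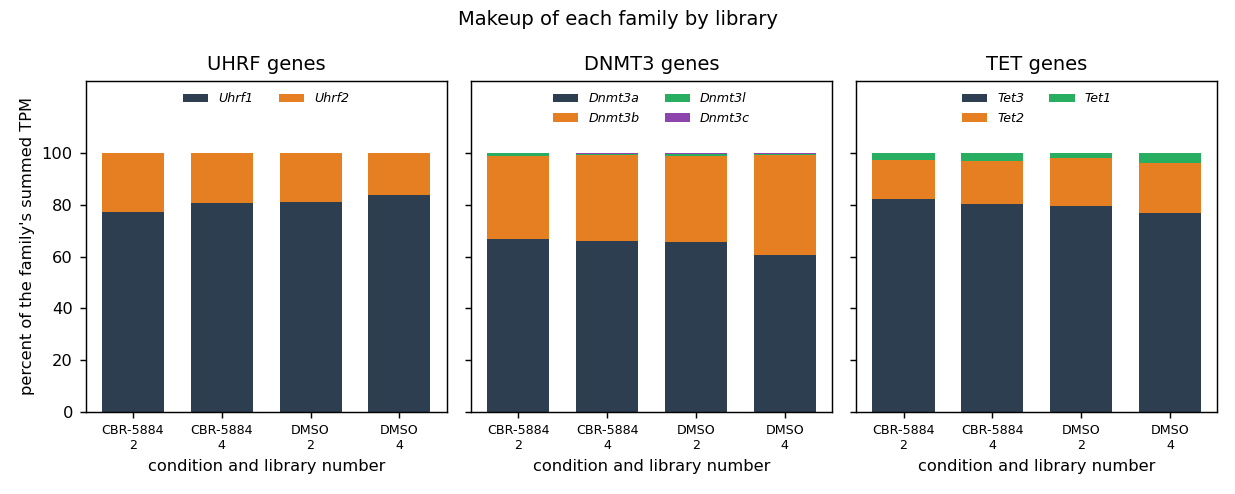
Percent of the summed TPM of the UHRF, DNMT3 and TET genes that each gene contributed, with 1 stacked bar per library and the CBR-5884 libraries left of the DMSO libraries. Uhrf2 took 19.4 to 22.6% of the UHRF sum with CBR-5884 and 15.96 to 18.8% with DMSO, while Dnmt3a, Tet3 and Uhrf1 led their families in every library.

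Leaving out 1 library at a time showed which differences rest on which library. Dnmt1, Dnmt3b, Uhrf1 and Tet2 remained negative and Dnmt3a and Uhrf2 positive in each of these 4 fits. Uhrf1 ranged from -0.23 to -0.08 and Uhrf2 from 0.12 to 0.25. Dnmt3l and Tet3 took the opposite sign without DMSO library 4. In none of these fits did any of the 8 genes pass the adjusted threshold.

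**Figure D4:**
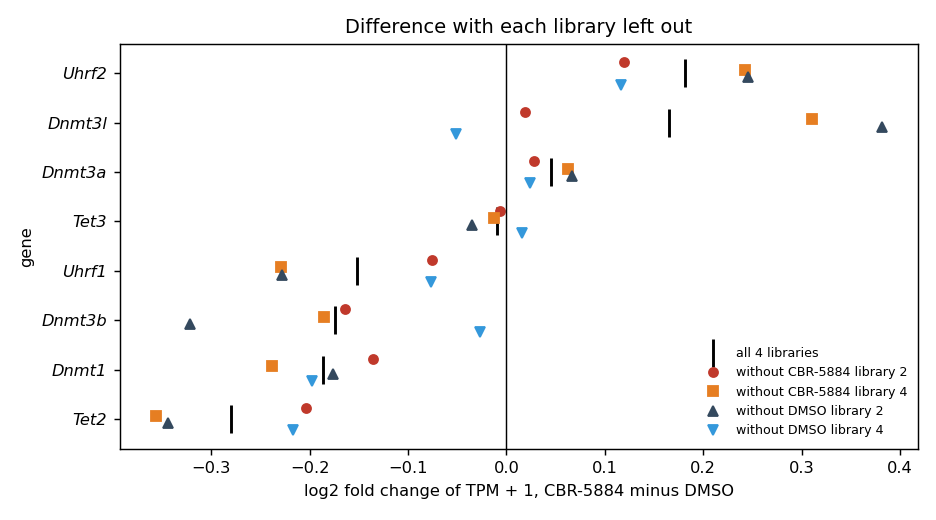
Log2 fold change of TPM + 1, CBR-5884 minus DMSO, for the 8 tested genes with all 4 libraries (black bar) and with each library left out (symbols). The symbols of Dnmt3b spread from -0.32 to -0.03, and those of Dnmt3l lie on both sides of 0.

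Genes that work with these enzymes were examined in lists. None of their tested members passed the threshold in either direction (limma, where 0% of all tested genes did), and at an unadjusted p under 0.05 there were 2, Tdg and Mcm7, where 3.66% of all tested genes met that limit. Counts of separate ranges in these lists stand against 31.3% of all tested genes, 13.6% higher and 17.7% lower with CBR-5884. They use TPM as deposited, with the lowest total in CBR-5884 library 4 (966761), and narrow separations may depend on that total. Of 9 partners of maintenance methylation, 8 were tested, of which 7 had a negative and 1 a positive log2 fold change, with a median of -0.09 and ranges apart for 3, all lower with CBR-5884 (17.7% of all tested genes). Hells, a chromatin remodeller needed for methylation of repeats, had 720 and 674 TPM with CBR-5884, against 810 and 713 TPM with DMSO, and the ranges overlapped. Pcna, the replication clamp, had 241 and 215 TPM with CBR-5884, against 245 and 233 TPM with DMSO, a level made uncertain by the 23.3% of its 31-base words that occur elsewhere. Lig1, the replicative DNA ligase, had 203 and 231 TPM with CBR-5884, against 234 and 237 TPM with DMSO, and a log2 fold change of -0.12. Its ranges were separate by a narrow margin as deposited, and were not compared with equal library totals. Dppa3, which keeps UHRF1 from chromatin in oocytes, was too low for testing, at 0.940 and 0.481 TPM with CBR-5884, against 1.24 and 0.750 TPM with DMSO.

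For the 15 genes that direct de novo methylation or guard it, the median was 0.04, with 8 positive and 7 negative members, and ranges were apart for 0, against 31.3% of all tested genes. Trim28, the corepressor of KRAB zinc finger proteins, had 465 and 442 TPM with CBR-5884, against 432 and 446 TPM with DMSO. The piRNA-directed arm was present, with Piwil4, the nuclear PIWI protein of prospermatogonia, at 21.9 and 18.7 TPM with CBR-5884, against 18.9 and 14.5 TPM with DMSO. Tex15 and Spocd1 are nuclear partners of that pathway. Tex15 had 154 and 195 TPM with CBR-5884, against 157 and 163 TPM with DMSO. Spocd1 had 5.68 and 4.44 TPM with CBR-5884, against 6.72 and 3.28 TPM with DMSO. All 3 overlapped between the conditions.

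Of 19 genes for removal of oxidised cytosine, 18 were tested, with 11 positive and 7 negative, a median of 0.02 and ranges apart for 2 higher and 1 lower (13.6% and 17.7% of all tested genes). Tdg, the glycosylase that excises the bases TET enzymes produce, had the smallest p of this list. It had 45.0 and 38.2 TPM with CBR-5884, against 51.9 and 51.6 TPM with DMSO. Its log2 fold change was -0.31 with a 95% interval of -0.58 to -0.04 (limma unadjusted p = 0.0304, adjusted p = 0.998), and both CBR-5884 libraries lay below both DMSO libraries. Its level is uncertain, since 48.0% of its 31-base words occur elsewhere, mostly in the pseudogene Tdg-ps. The sum of Tdg and Tdg-ps was 49.1 and 40.0 TPM with CBR-5884, against 55.6 and 54.0 TPM with DMSO, and its ranges were separate too. Parp1, a sensor of strand breaks, had 444 and 396 TPM with CBR-5884, against 489 and 424 TPM with DMSO.

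The 11 enzymes that bear on 2-oxoglutarate, the cosubstrate of TET enzymes, had a median of -0.05, with 4 positive and 7 negative and ranges apart for 1 higher and 4 lower (13.6% and 17.7% of all tested genes). Sdha, a subunit of succinate dehydrogenase, had 385 and 361 TPM with CBR-5884, against 431 and 378 TPM with DMSO. Idh2, which makes 2-oxoglutarate in mitochondria, had 4.75 and 5.64 TPM with CBR-5884, against 5.97 and 7.43 TPM with DMSO. The ranges of Idh2 were separate, but its 95% interval of -0.84 to 0.22 included 0. The 7 readers of methylated CpG had a median of 0.07, with 4 positive and 3 negative and ranges apart for 1 higher and 1 lower, close to the 31.3% of all tested genes. Mbd3, a subunit of the NuRD complex, had 167 and 140 TPM with CBR-5884, against 165 and 148 TPM with DMSO. Mbd1 had 38.9 and 44.2 TPM with CBR-5884, against 35.3 and 38.5 TPM with DMSO.

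Genes of methyl donor supply had a median of 0.03 over 9 members, with 6 positive and 3 negative and ranges apart for 3 higher and 2 lower (13.6% and 17.7% of all tested genes). Mat2a, the synthetase that makes S-adenosylmethionine, had 82.3 and 82.6 TPM with CBR-5884, against 77.2 and 73.7 TPM with DMSO. The CBR-5884 range lay above, and the 95% interval of the log2 fold change was -0.07 to 0.32. Mtr, methionine synthase, had 261 and 273 TPM with CBR-5884, against 282 and 281 TPM with DMSO. Ahcyl2, a relative of the hydrolase Ahcy, had 57.5 and 52.3 TPM with CBR-5884, against 49.6 and 46.8 TPM with DMSO. Ahcy itself, which clears S-adenosylhomocysteine, had 14.1 and 9.26 TPM with CBR-5884, against 13.0 and 8.17 TPM with DMSO. This level is uncertain, as other genes hold 71.4% of its 31-base words. Most of these words lie in Gm4737, listed at 188 and 195 TPM with CBR-5884, against 203 and 228 TPM with DMSO. Gm4737 was thus far more abundant and lower with CBR-5884, so the direction of Ahcy, counted among the 6 positive genes, is uncertain too.

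Germline genes whose promoters are silenced by methylation in somatic cells form the last list. All 15 were tested, 12 positive and 3 negative, with a median of 0.06 and ranges apart for 3 higher and 1 lower, close to the 31.3% of all tested genes. Dazl, which encodes a germ cell regulator of translation, had 906 and 897 TPM with CBR-5884, against 892 and 897 TPM with DMSO. Sycp3, a component of the meiotic chromosome axis, had 196 and 192 TPM with CBR-5884, against 189 and 162 TPM with DMSO, with a 95% interval of -0.08 to 0.38. These are mRNA levels, and methylation itself was not measured in these libraries.

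**Figure D5:**
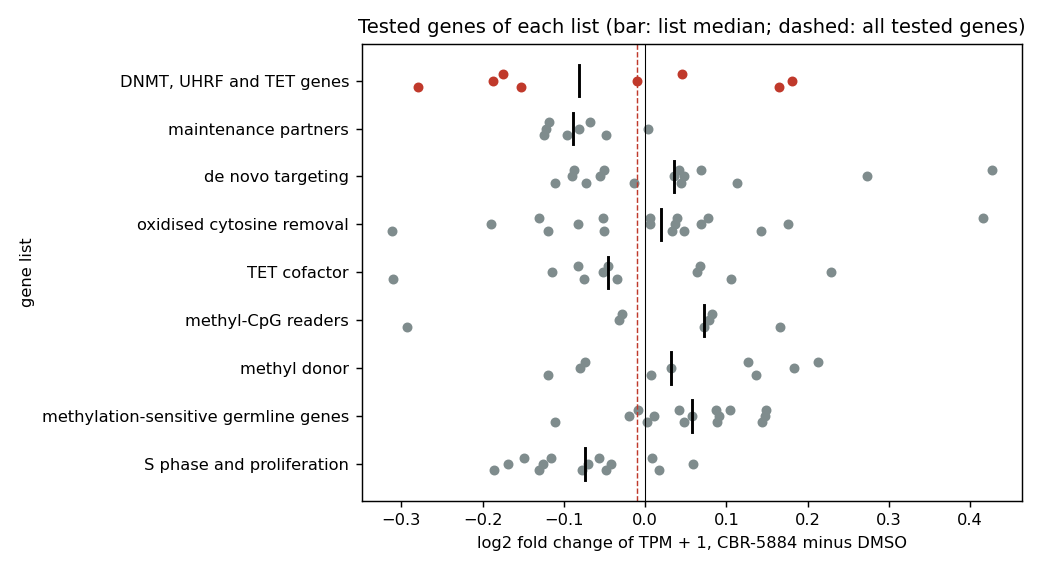
Log2 fold change of TPM + 1, CBR-5884 minus DMSO, of each tested gene of the set and of the 8 related lists, with a bar at each list's median and a dashed line at the median of all tested genes. List medians lie between -0.09 for maintenance partners and 0.07 for methyl-CpG readers.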

How the data were processed

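Per the submitters' processing notes, reads went through fastp and kallisto with mm10 as genome build, and no versions or options are named there. The deposited table lists 2 signal measures, TPM and scaled reads per base. The gene's value stands on the line of each of its transcripts, and duplicates were dropped. Totals of the deposited TPM signal ranged from 966761 to 1002976, and not all equal a fixed sum. For genes with more than 1 transcript, scaled reads need not follow reads, so the depth figure is rough. Total scaled reads were divided by their most common low step among genes with 1 transcript. Whole multiples of that step (within 0.05) made up 48.5 to 50.1% of low values, too few to recover reads, so no count test was run. Intervals come from the spread between libraries, which limma draws towards that of genes at a like level. Of 6.07 degrees of freedom, 2 come from the gene's own libraries.

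Conditions were compared with limma (version 3.58.1, R version 4.3.3) by its trend method, two-sided and without covariates, on log2(TPM + 1), which understates changes of low genes. A mean of at least 1 TPM left 14920 genes, and 21168 were not tested. The script was tested on simulated data. Table numbers 2 and 4 could not be tied to the labels' replicate numbers, so only the condition was used in the main comparison. Positions come from GENCODE M21 on GRCm38 (mm10), promoter windows from RefSeq (GRCm38.p6), shared 31-base words from GENCODE transcripts, and the alignment from Biopython 1.88. Genes named from related lists are the highest by mean TPM, the one with the smallest p, and 9 chosen by name. The 10 genes and the lists were chosen with earlier results of these data known, and the sum of Tdg and Tdg-ps after values were seen.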

Additional observations from a re-analysis of the deposited data

How the results depend on the processing

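Alternatives were another pseudocount (0.1), no minimum level, scaled reads per base, equal library totals, median ratio scaling, each library left out, and the table number as a replicate block. Protein-coding genes alone and robust variance estimates were added after seeing the data. In all 12, 0 of the 8 genes were called, and the median log2 fold change of the 8 stayed between -0.11 and -0.04. Over all genes, scaled reads per base called 1, protein-coding genes alone 2 and robust variance estimates 1. Of the 8, 4 had separate ranges with equal library totals, and 5 to 8 with a library left out (8 without DMSO library 2), where 1 library against 2 separates more easily. The share of all tested genes with separate ranges is given for the main comparison only (31.3%). Without that share under each alternative, these counts cannot tell whether the 8 genes separate more often than others. Tet3 turned to 0.017 with equal library totals, to 0.00023 with median ratio scaling and to 0.016 without DMSO library 4 (-0.035 without DMSO library 2). Dnmt3l ranged from -0.052 to 0.38 with a library left out. Directions of the other 6 genes held in all 12. With the replicate block, the median of the 8 was -0.08 and 0 genes were called (797 at an unadjusted limma p under 0.05, against 546 without it), and the limma unadjusted p of Dnmt1 was 0.0415. The 2 minus 4 differences of both conditions correlated at 0.20 across genes, which with 2 pairs does not establish pairing. Depth limits Dnmt3c, Tet1 and Dnmt3l most.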
